A study of Caenorhabditis elegans with 2 samples.

Results

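ZK185.1, a C2H2 zinc finger protein of Caenorhabditis elegans, gave 172 thresholded ChIP-seq peaks on the autosomes whose summits lay inside introns of protein-coding genes. They made up 8.38% of all thresholded peaks, the other 1881 lying elsewhere. A peak was a member when its summit lay within a protein-coding gene, in none of the exons of such genes, and outside every start window. The start window of a protein-coding, tRNA, snRNA or snoRNA gene covered 1000 bp before its annotated 5′ end and 200 bp after it. Within the thresholded list the choice used the summit position alone. The list itself was chosen by the authors on signal and on reproducibility between replicates, so the members' signals and replicate matches carry that selection, as do those of the other thresholded peaks they are set against. The peaks came from whole young adult hermaphrodites of strain OP474, genotype unc-119(tm4063) III; wgIs474, harvested 56.25 h after synchronization at the L1 stage, where larvae had starved after bleaching. The strain stably expresses ZK185.1 from an inserted transgene, tagged at the C terminus with GFP and FLAG, and anti-GFP antibody was used for the immunoprecipitation. There were 2 biological replicates and 1 group, with no comparison of conditions. In a whole worm, a peak bound in few cells and a peak bound weakly in many cells cannot be told apart.

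Introns are removed from the transcript, yet their DNA can carry enhancers, promoters of shorter transcript forms of the host gene, and whole RNA genes nested in the host. In C. elegans most introns are short, and long introns near the 5′ end of a gene are a known place of regulatory DNA. C2H2 zinc finger proteins are a large class of DNA-binding proteins, and a ChIP-seq peak marks a place where fragments carrying the tagged protein were recovered, whether or not the protein touches that DNA itself.

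The sequences below show what lies at some of the strongest intronic summits. Each holds the summit base and 50 bases to either side, on the plus strand of the WBcel235 assembly as given by RefSeq, and each name gives the host gene, the member's rank by signal among the 172 and the window. Capitals mark matches, on either strand, to the 6 words of 6 bases that were called more frequent at intronic summits than in flanks (adjusted p under 0.05), which are named with their counts further on, and to CTGCGTC, which was chosen after its values were seen.
scc-2 (member 2, chrII:255307-255407): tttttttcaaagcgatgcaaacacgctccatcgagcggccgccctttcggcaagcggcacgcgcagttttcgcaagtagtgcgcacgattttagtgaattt
Y57G11C.22 (member 3, chrIV:14838258-14838358): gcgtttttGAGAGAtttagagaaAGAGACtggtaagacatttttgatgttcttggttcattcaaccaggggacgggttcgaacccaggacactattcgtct
epg-9 (member 4, chrIV:2602101-2602201): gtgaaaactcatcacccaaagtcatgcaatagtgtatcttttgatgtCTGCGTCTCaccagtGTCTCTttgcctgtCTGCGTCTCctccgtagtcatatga
zfp-1 (member 6, chrIII:8795876-8795976): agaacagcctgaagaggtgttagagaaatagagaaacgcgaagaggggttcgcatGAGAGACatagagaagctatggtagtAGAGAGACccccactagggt
ari-1.4 (member 8, chrIV:15526616-15526716): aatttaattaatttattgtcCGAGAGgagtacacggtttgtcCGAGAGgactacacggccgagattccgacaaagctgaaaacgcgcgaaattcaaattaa
W01D2.3 (member 10, chrII:14801394-14801494): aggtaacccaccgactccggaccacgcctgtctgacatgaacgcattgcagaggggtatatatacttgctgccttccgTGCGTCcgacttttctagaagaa
larp-1 (member 11, chrIII:5014025-5014125): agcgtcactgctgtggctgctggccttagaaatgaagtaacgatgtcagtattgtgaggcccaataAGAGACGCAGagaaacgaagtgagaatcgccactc
gei-4 (member 13, chrIII:349964-350064): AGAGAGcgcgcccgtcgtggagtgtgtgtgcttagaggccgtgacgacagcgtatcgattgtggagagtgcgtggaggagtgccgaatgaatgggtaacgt
zfp-1 (member 14, chrIII:8797358-8797458): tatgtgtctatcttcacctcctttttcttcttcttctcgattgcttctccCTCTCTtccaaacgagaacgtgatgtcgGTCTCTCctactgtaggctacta
klp-6 (member 15, chrIII:5031529-5031629): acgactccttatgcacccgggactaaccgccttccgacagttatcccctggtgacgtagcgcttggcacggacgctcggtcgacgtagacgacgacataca
Of these 10 windows, the epg-9 one held CTGCGTCTC at both of its sites, and the larp-1 one held the same letters on the other strand. The windows of scc-2 and klp-6 held none of the words. The Y57G11C.22 summit lay in no annotated RNA gene, although the letters of GGTTCGA, the conserved start of the internal B box of tRNA genes, occur in its window.

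The pooled signal, a peak height as the authors deposited it with no stated scale, had a median of 79.8 over the 172 intronic peaks. The quartiles were 64.8 and 119, and the range was 57.0 to 327. The median was 104 over the 870 autosomal peaks in start windows of coding genes, with a maximum of 1039, and 77.5 over the 209 intergenic autosomal peaks. Intronic peaks were thus weaker in the middle of their range than start-window peaks, and 65 of 172 (37.8%) had at least the median signal of the thresholded list, 93.7, against 489 of 870 (56.2%). The lowest signal in the thresholded list was 57.0, so the weakest members stood at its edge. The median width was 316 bp, and 110 members (64.0%) had exactly that width, as did 403 start-window peaks (46.3%). In 135 members the whole peak lay inside the intron, and in 16 the summit was within 50 bp of a splice site.

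**Figure D1:**
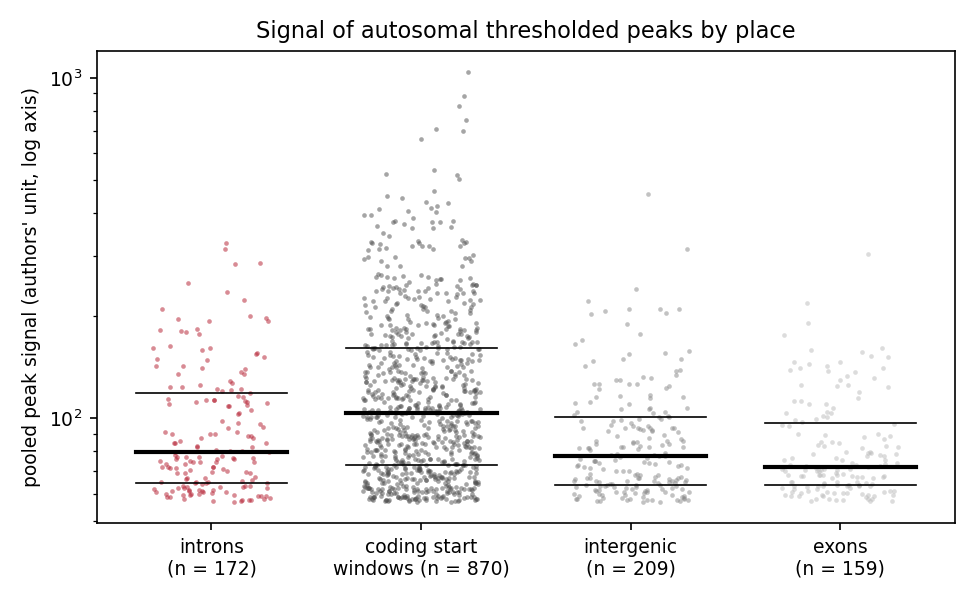
Pooled signal of each autosomal thresholded peak (log axis, authors' unit) by place, with points spread sideways for legibility. Thick lines are medians and thin lines quartiles. The 172 intronic peaks have a median of 79.8 and end at 327, and the 870 start-window peaks have a median of 104 and reach 1039.

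Each replicate had its own relaxed list of regions, and a member was matched when that list held a summit within 100 bp. The match was found in replicate 1 for 147 members and in replicate 2 for 153, in both for 129 (75%, exact 95% interval 67.8 to 81.3) and in neither for 1. A match in both lists was less frequent among intronic peaks than among start-window peaks, of which 742 of 870 (85.3%) had one. The odds ratio was 0.518 (95% interval 0.345 to 0.787, two-sided Fisher's exact test, adjusted p = 0.00226 over 6 comparisons). That call was lost when summits within 200 bp counted as a match, where the shares were 93.0% and 94.5% (odds ratio 0.779, Fisher's exact test, adjusted p = 0.473). Against the intergenic peaks, of which 152 of 209 (72.7%) had both matches, the odds ratio was 1.12 with a 95% interval of 0.693 to 1.83 (two-sided Fisher's exact test, adjusted p = 0.641). With matches within 200 bp the shares were 93.0% and 86.6%, an odds ratio of 2.06 (Fisher's exact test, adjusted p = 0.0540). Peaks were counted as independent in these tests, which describe peaks of this experiment and not new worms, and the intervals cover the counting of peaks only. Signal, which differed between the sets of peaks, was not taken into account. Within 100 bp, both matches were found for 63.2% of the 19 members with pooled signal under 60 and 86.9% of the 61 over 100.

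Among the 129 members matched in both lists the signal was higher in replicate 2 in 96, with a median ratio of replicate 2 to replicate 1 of 1.65. The medians of the whole relaxed lists were 7.96 in replicate 2 and 5.58 in replicate 1, so the scales differ between the lists. Across these peaks the 2 signals had a Spearman correlation of 0.234, against 0.585 for the start-window peaks, 0.274 for the intergenic peaks and 0.180 for the exon peaks. Pooled signal spanned a narrower range over all intronic peaks, with quartiles of 64.8 and 119, against 72.9 and 161 over all start-window peaks. The part of that range in the coefficients was not tested. These coefficients describe peaks that share both libraries. For single members the matched signals differed widely between the replicates. Y111B2A.12, a WD-repeat gene, carried a member with signal 110 in replicate 1 and 4.90 in replicate 2, while gei-4, a gene for a bZIP-domain protein, carried one with 12.9 in replicate 1 and 129 in replicate 2. The lower values came from summits 95 bp away in Y111B2A.12 and 89 bp away in gei-4, near the match limit. Whether these belong to the same peak was not tested.

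**Figure D2:**
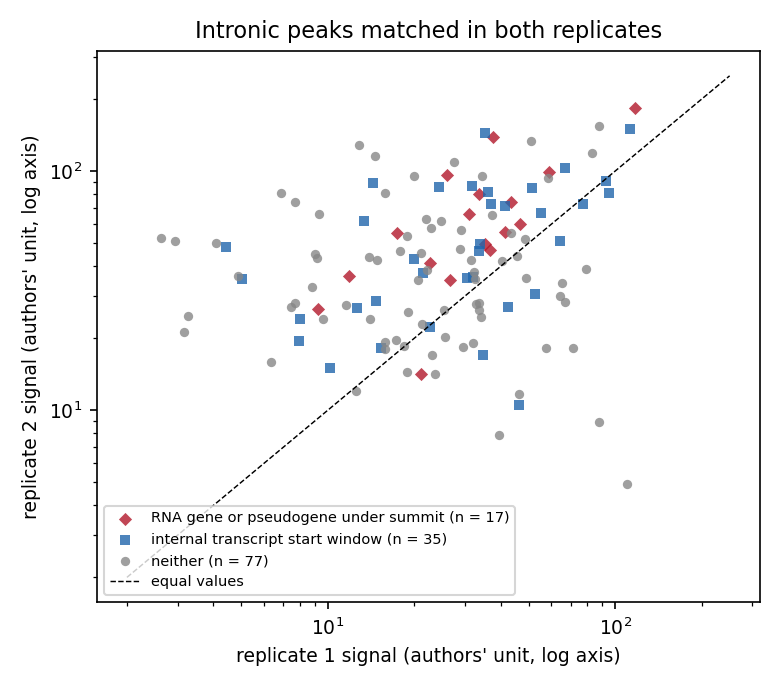
Signal in replicate 1 against replicate 2 (both log axes, authors' unit) for the 129 intronic peaks matched in both lists, marked by what lies at the summit. The dashed line is equality: 96 points lie above it, and the 17 peaks over an RNA gene or pseudogene lie mostly above it.

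The strongest intronic peak lay over rpr-1, the gene for the RNA of RNase P, which trims tRNA precursors. It is nested in an intron of ints-8, a subunit gene of the Integrator complex that cleaves nascent RNAs, and its signal was 118 in replicate 1 and 183 in replicate 2, with a pooled value of 327. Next came scc-2, the gene of the cohesin loader, at 113 in replicate 1 and 150 in replicate 2 (pooled 314), 161 bp upstream of a later transcript start of the same gene. A peak in Y57G11C.22, annotated as a PRKCA-binding protein, had 82.7 and 118 in replicates 1 and 2 (pooled 287). One in epg-9, the ATG101 autophagy gene, had 88.1 and 154 (pooled 284). The scc-2 peak lay in a first intron of 8367 bp, near its far end, 160 bp before the acceptor site. The fifth, in T28F4.1 (a SERTA-domain protein), lay over the RNA gene T28F4.7 and had 37.4 in replicate 1 and 138 in replicate 2 (pooled 249).

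The hosts of the rest of the 25 strongest were varied. zfp-1, a zinc finger chromatin protein related to mammalian AF10, held peaks of pooled signal 235 and 183, and let-526, an ARID-domain subunit of SWI/SNF, held one of 200. larp-1 (a La-related RNA-binding protein) had 195, and ppfr-1 (a regulatory subunit of phosphatase PP4) had 194 and 162. K05C4.2, a jagunal homolog, had 93.0 in replicate 1 and 91.0 in replicate 2 (pooled 223). The K05C4.2 summit lay 281 bp upstream of a later transcript start and 343 bp downstream of the gene's own 5′ end. ari-1.4, an RBR ubiquitin ligase gene, had 66.8 and 102 in replicates 1 and 2 (pooled 210). Then came W01D2.3 (a receptor expression-enhancing protein) at 197, gei-4 at 193, klp-6 (a kinesin) at 182 and Y111B2A.12 at 181. The rest were C01B9.4 at 179, pptr-2 (a regulatory subunit of phosphatase PP2A) at 177, W06H8.6 (a bHLH-domain protein) at 164, B0361.11 (a putative transporter) at 161 and zip-2 (a bZIP factor of the infection response) at 159. ckb-2 (choline kinase) at 155, mnk-1 (a MAP kinase-interacting kinase) at 154 and unc-108 (the GTPase Rab2) at 152 closed the set. These 25 peaks lay on all 5 autosomes.

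At the other end, the 5 weakest members were in mbk-2, mak-1, egl-44, mef-2 and R12B2.8, with pooled signals between 57.0 and 57.6. egl-44, which encodes a TEAD factor, had 21.2 in replicate 1 and 23.0 in replicate 2, and mbk-2, a DYRK-family kinase gene, had 7.98 and 24.1. The peaks in mak-1, mef-2 and R12B2.8 had 34.1, 31.5 and 32.5 in replicate 1 and no match within 100 bp in replicate 2. For these 3 the nearest replicate 2 summits lay 118 to 140 bp away, outside the match distance.

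Where the summits lay was compared with 5526 intronic background regions, which are regions of the pooled relaxed list that meet the same position rule and lie over 500 bp from any thresholded summit. Their median signal was 14.5. Intronic peaks were in long introns. The median length of the intron around the summit was 2491 bp, with 10 peaks in introns under 200 bp and the longest intron reaching 19925 bp. For the background the median was 882.5 bp. Introns of 1000 bp or more held 116 of 172 peaks (67.4%) and 2609 of 5526 background regions (47.2%), an odds ratio of 2.32 (95% interval 1.66 to 3.26, two-sided Fisher's exact test, adjusted p = 4.67e-07). Of all intronic bases that the position rule allows, 48.6% were in introns of that length.

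First introns held more of the peaks than of the background. The summit was in the first intron of at least 1 annotated transcript in 104 of 172 peaks (60.5%) and 2206 background regions (39.9%), against 31.7% of allowed bases. That transcript could start inside the gene, so such an intron need not be the gene's own first. The ints-8 and pqn-41 summits, for example, counted although they lay in introns 5 and 15 of the merged gene model. Summits in the gene's own first intron were not compared separately. The odds ratio was 2.30 (95% interval 1.67 to 3.19, two-sided Fisher's exact test, adjusted p = 4.67e-07). The 2 features overlap, since a first intron can also be long. Counting 1 region for each host gene gave odds ratios of 3.06 for first introns and 4.61 for long introns. Against only the strongest 1000 background regions the odds ratios were lower, and both calls were kept. They were 1.79 for first introns, which held 46% of those regions, and 1.70 for long introns, which held 54.9%. The peaks in first introns had a median signal of 78.9, against 81.3 for those in other introns only.

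Internal transcript starts of coding genes stood near some members. The window from 1000 bp upstream to 200 bp downstream of any annotated coding transcript start, other than the gene's own 5′ end, held 49 of 172 peaks (28.5%) and 1029 background regions (18.6%). The odds ratio was 1.74 (95% interval 1.22 to 2.46, two-sided Fisher's exact test, adjusted p = 0.00245). Without replicate 2 it was 2.78, with 34.2% of peaks against 15.8% of background regions. Against only the strongest 1000 background regions it was 1.12 (Fisher's exact test, adjusted p = 0.618), with 26.2% of those regions in such a window, so the difference from background was not called there. Within 500 bp of the nearest coding transcript start, here including genes' own 5′ ends, lay 52 peaks, 51 of them at a start of the host itself. Upstream were 30 of the 52, and the median position of the 52 was -71.5 bp. Of the 1256 background regions within 500 bp, 559 were upstream (44.5%) and the median was 177 bp. The position rule bars summits from 1000 bp upstream to 200 bp downstream of a gene's own 5′ end. At this distance own 5′ ends could therefore add only downstream positions, for peaks and background alike. These positions do not describe internal starts alone. The 49 peaks in internal start windows had a median signal of 88.8, against 76.6 for the other 123. Examples are hrpk-1, an RNA-binding protein gene, 79 bp upstream of such a start with signals of 33.8 in replicate 1 and 49.4 in replicate 2, and pptr-2, 104 bp upstream, with 94.9 and 81.1. The hrpk-1 summit was also only 254 bp downstream of the gene's own 5′ end.

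**Figure D3:**
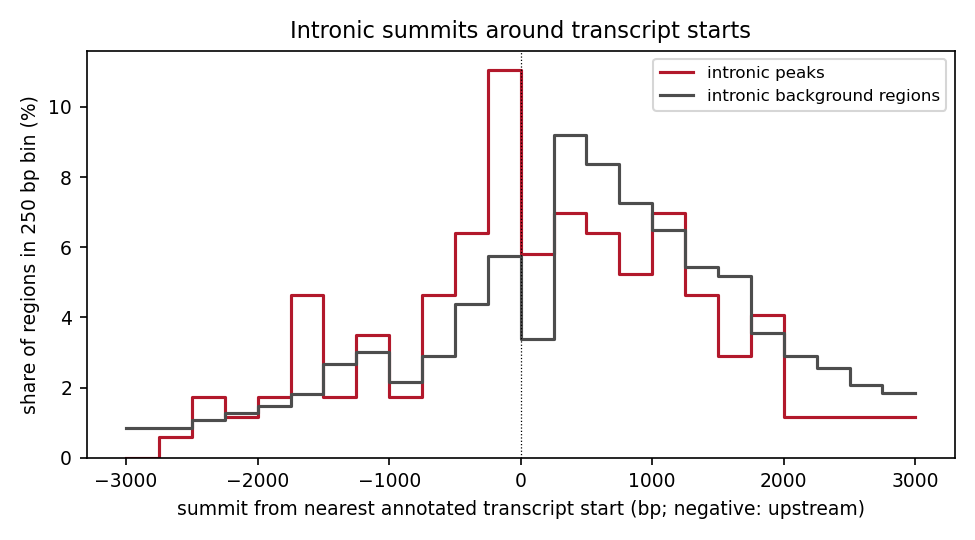
Share of intronic peaks and of background regions (vertical axis, %, in 250 bp bins) by the distance of the summit from the nearest annotated transcript start (horizontal axis, bp, negative upstream). The bin just upstream holds 11.0% of the intronic peaks and 5.74% of the background regions, while from 250 to 500 bp downstream the shares are 6.98% and 9.19%. The starts include genes' own 5′ ends, around which the position rule bars summits from 1000 bp upstream to 200 bp downstream.

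RNA genes gave the largest odds ratio of the 4 position features. The summit was inside an annotated gene that is not protein-coding in 18 of 172 peaks (10.5%), against 143 of 5526 background regions (2.59%) and 1.90% of allowed bases. The odds ratio was 4.40 (95% interval 2.47 to 7.43, two-sided Fisher's exact test, adjusted p = 2.58e-06). Without replicate 2 it was 2.91, with 7.11% of peaks against 2.56% of background regions, and the call was kept. The genes were annotated as ncRNA in 13 cases, antisense RNA in 3, and miRNA and pseudogene in 1 each. Their peaks had a median signal of 106, against 77.0 for the 154 other members, and 17 of the 18 were matched in both replicates. RNase P, SRP and Y RNAs, all known products of RNA polymerase III, were among them. The SRP RNA gene srpr-2.2, in the antisense orientation within klp-6, had a peak of 58.9 in replicate 1 and 99.5 in replicate 2 (pooled 182). srpr-1.2, within ckb-2, had 33.6 and 80.3 (pooled 155). The Y RNA gene yrn-1, within F55G1.15, had 26.7 and 34.9 (pooled 59.8). The miRNA gene mir-2214 in B0361.11 had 25.9 and 96.0. Near the match limit lay the replicate 1 summits for klp-6, 97 bp away, and for B0361.11, 95 bp away. The antisense RNA genes F48C1.15 in let-526, anr-20 in ppfr-1 and anr-54 in vhp-1 had pooled signals between 109 and 122. Less studied RNA genes lay under members in drap-1 (36.7 in replicate 1 and 46.8 in replicate 2), crh-2, a CREB homolog (35.1 and 49.3), gpa-1, a G protein alpha subunit (22.7 and 41.1), and hlh-30, the TFEB homolog (21.1 and 14.2). All 4 of these were matched in both replicates.

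The wider families of those RNAs were looked up after the values were seen. Of 8 genes for RNase P, RNase MRP, SRP and Y RNAs, 6 had a thresholded peak and 4 of these were intronic. mrpr-1, the RNase MRP RNA gene, had a start-window peak of 160, and srpr-2.1 had an intergenic one of 107. srpr-1.1 and srpr-3 had no summit, either in the thresholded list or in the pooled relaxed list. The SRP RNA copies with a peak resemble each other closely: srpr-2.1 and srpr-2.2 shared 296 of 299 bases (99.0%), srpr-1.2 and srpr-2.1 shared 282 (94.3%), and srpr-1.2 and srpr-2.2 shared 281 (94.0%). srpr-3 shared 242 to 244 of 299 bases with these copies (80.9% to 81.6%), and srpr-1.1, which differs in length, was not compared. Which of the close copies the reads came from is therefore uncertain, and whether srpr-1.1 is one of these was not examined.

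**Figure D4:**
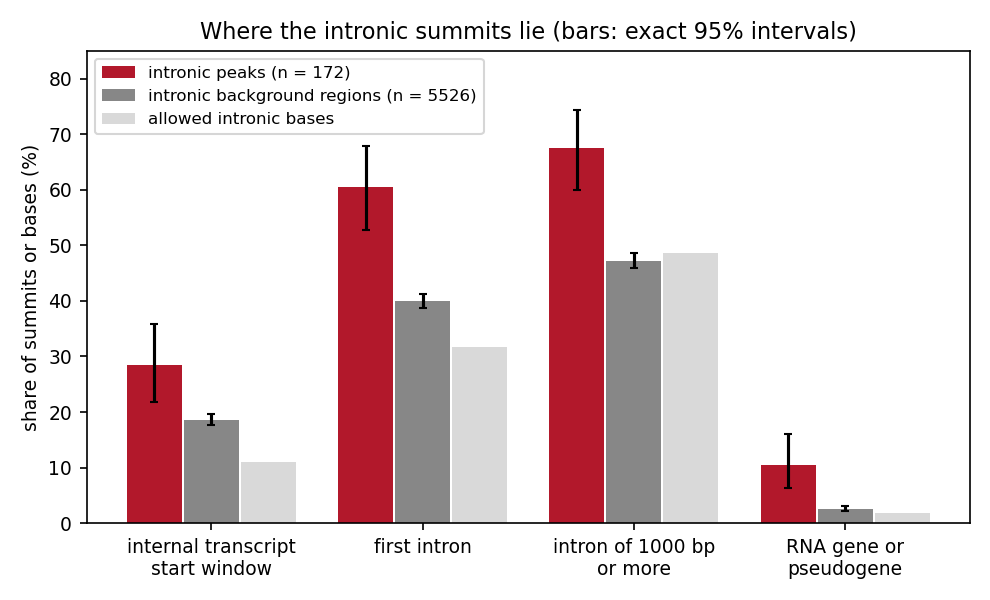
Share of intronic peaks, of intronic background regions and of allowed intronic bases (vertical axis, %) with each of 4 position features; error bars are exact 95% intervals. Intronic peaks stand above background in all of them, most by ratio for RNA genes and pseudogenes (10.5% against 2.59%).

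The 172 peaks fell in 142 host genes, 0.946% of the 15007 autosomal coding genes with an allowed intronic base. Most hosts, 124, had 1 peak, 10 had 2, and 8 had 3 or more. The kinase gene mnk-1 had 5 peaks over 12624 bp, with pooled signals from 65.1 to 154. In that gene the strongest peak stood 140 bp upstream of a later transcript start and had 52.6 in replicate 1 and 30.6 in replicate 2. The replicate 2 value came from a summit 95 bp away, near the match limit. zfp-1 and ppfr-1 had 4 peaks each, from 91.0 to 235 in zfp-1 and from 84.8 to 194 in ppfr-1. The other 5 hosts, with 3 peaks each, were let-526, Y111B2A.12, srh-2 (a chemoreceptor), atf-7 (a bZIP factor of immune signalling) and vhp-1 (a MAP kinase phosphatase). In zfp-1, in order from its 5′ end, the pooled signals were 91.0, 235, 183 and 97.2. Their replicate 1 values were 18.9, 51.1, 72.4 and 43.3, and in replicate 2 the peak of 183 had no match within 100 bp. vhp-1 held pooled signals of 75.1, 109 and 87.9, each matched in both replicates, with 31.1 in replicate 1 and 66.3 in replicate 2 at the highest. In atf-7 the highest pooled signal was 123 and the weakest peak was matched only in replicate 2, at 37.5. The srh-2 peak of 140, with 51.1 in replicate 1 and 84.6 in replicate 2, had its summit in an intron of 42 bp, so most of that peak covered exons and neighbouring introns. Some adjacent members lay close together. In let-526, summits 216 bp apart had a match only in replicate 1 (signal 123) and only in replicate 2 (signal 118). Another thresholded summit lay within 500 bp of 6 members and within 2000 bp of 60.

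**Figure D5:**
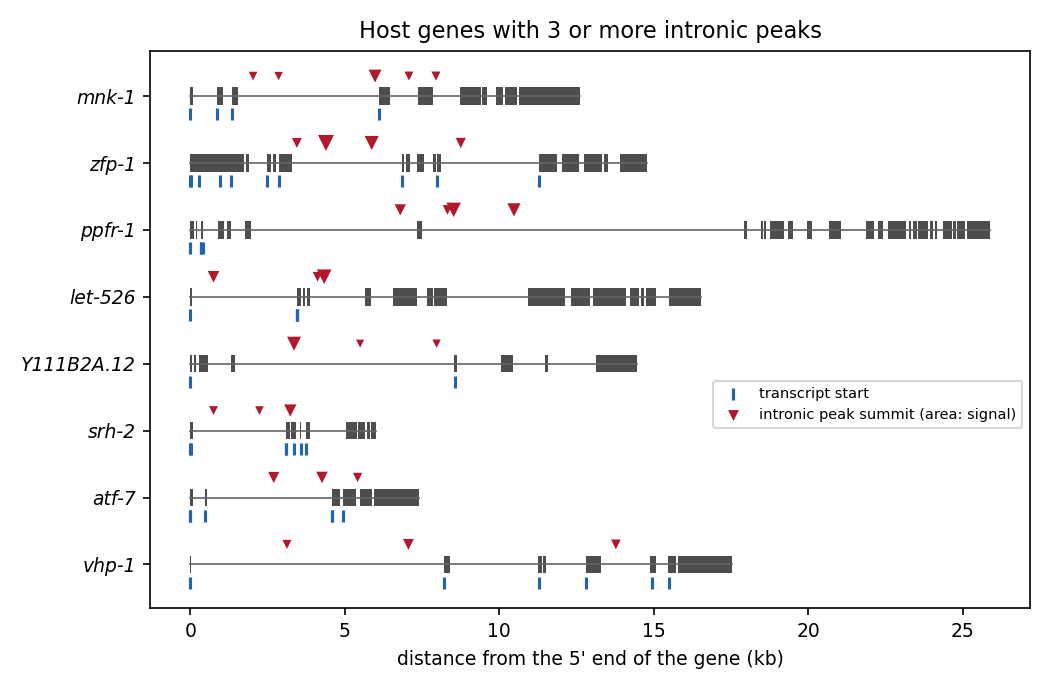
Gene models of the 8 hosts with 3 or more intronic peaks (boxes are merged exons, blue ticks transcript starts), drawn from the 5′ end of each gene in kb. Triangles are summits with area proportional to pooled signal. In mnk-1 the largest of 5 triangles stands beside a later transcript start, and in ppfr-1 3 of the 4 lie in a single intron of 10404 bp.

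Gene lists by symbol pattern were described by counts only, since the lists were chosen with earlier results known. Transcription factor genes were hosts in 12 of 436 cases (2.75%), with 15 peaks or 16.4 per Mb of allowed intron, against 0.946% and 6.73 per Mb for all genes. The leading ones were zip-2, atf-7 and lag-1, the Notch pathway DNA-binding factor, whose peak had 37.2 in replicate 1 and 65.8 in replicate 2. skn-1, the Nrf stress factor, had 24.8 and 61.6, and daf-16, the FOXO factor of insulin signalling, held peaks of pooled signal 62.4 and 61.5. The daf-16 peaks were low in replicate 1, at 2.94 and 9.35, and higher in replicate 2, at 51.1 and 66.0. Signalling genes were hosts in 7 of 135 cases (5.19%), but their median allowed intron was 2377 bp, against 689 bp for all genes, and their peaks numbered 9.43 per Mb, against 6.73. They were led by let-363 (the TOR kinase, pooled 140), gpb-1 (a G protein beta subunit, 91.3) and rab-3 (a synaptic vesicle GTPase, 88.8). Muscle and cytoskeleton genes held 2 hosts of 65, klp-6 and ifb-2 (an intestinal intermediate filament, 72.2). Adhesion and guidance genes held 1 of 88 (lron-14, 77.1), RNA-binding genes 1 of 85 (hrpk-1, 122) and collagens 1 of 109 (col-72, 96.3). Chemoreceptors held 2 of 1305, srh-2 and srt-52, with 4 peaks.

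Some lists held no host. Ion channel and neurotransmitter receptor genes were hosts for 0 of 172 genes, although their median allowed intron was 2548.5 bp, against 689 bp for all genes. Their allowed introns came to 0.680 Mb, and all genes together had 6.73 peaks per Mb. This absence was not tested. The 27 oxidative phosphorylation genes and the 34 ribosomal protein genes also had none, but they offer little intron, with a median of 361 bp and 54.5 bp. At the overall share of 0.946% of genes, lists of 27 or 34 genes would hold less than 1 host. Start-window peaks were present at 11 of the oxidative phosphorylation genes and 21 of the ribosomal protein genes. Host genes had a start-window peak in 18 of 142 cases (12.7%), against 6.10% of all allowed genes. By chromosome the members numbered 6.23 per Mb of allowed intron on I, 8.76 on II, 8.94 on III, 5.36 on IV and 5.58 on V.

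Words of 6 bases, with both strands joined, were compared between the window of 50 bp either side of each summit and a window of the same size 300 bp to the higher coordinate. Of 2080 words, 6 were called (0.288%) by the two-sided exact McNemar test with Benjamini-Hochberg adjustment, and 120 had an unadjusted p under 0.05. All 6 were more frequent at summits. With the flank at the lower coordinate instead, 20 words were called, 9 of them more frequent at summits, and all of the 6 were among the 20. GAGAGA was at 60 of 172 summits (34.9%) and 11 flanks (6.40%), with an adjusted p of 2.84e-07. Without replicate 2 it was at 22.7% of 225 summits and 7.56% of flanks, and was still called. CGAGAG was at 35 summits and 4 flanks (exact McNemar test, adjusted p = 3.82e-05), and AGAGAG was at 48 summits and 12 flanks. AGAGAC was at 38 summits and 9 flanks, CGTCTC was at 31 summits and 6 flanks, and GACGCA was at 25 summits and 5 flanks. These words overlap, since the first 4 share most of their letters and the last 2 can lie in the same run on opposite strands. The next word, AGACGC, was at 23 summits and 4 flanks and was not called (exact McNemar test, adjusted p = 0.0778). Also not called were AAGAGA at 49 summits and 20 flanks, CCTCTC at 23 summits and 5 flanks, and ACGCAG at 25 summits and 6 flanks. Words of A and T were less frequent at summits but not called. Of these AATAAA was at 13 summits and 37 flanks (exact McNemar test, adjusted p = 0.0778), AAATAA at 14 summits and 38 flanks, and AAAAAT at 36 summits and 67 flanks. AAAATC was at 17 summits and 42 flanks, and ATAAAA was at 11 summits and 34 flanks.

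The GAGAGA share depended on place. It was 34.9% at intronic peaks, against 9.12% at intronic background regions and 4.35% of 195060 windows of the same length tiled over allowed introns. It was 35.4% at intergenic peaks, 17.8% at start-window peaks and 12.6% at exon peaks. The stronger 86 members held it in 44.2% and the weaker 86 in 25.6%. CTGCGTC was at 18 intronic summits (10.5%), against 1.16% of flanks, 1.36% of background and 0.908% of tiles, and 10 members held both words. Among other thresholded peaks CTGCGTC was at 12.9% of intergenic, 9.08% of start-window, 6.54% of chromosome X and 1.26% of exon peaks. At least 1 of the 6 called words was at 93 intronic summits (54.1%), against 35 flanks (20.3%) and 10.7% of tiles. The words were called on these same summits and flanks, so the excess over flanks follows from that choice. At least 1 of them was at 50.2% of intergenic, 43.6% of start-window, 43.4% of chromosome X and 25.2% of exon peaks. The share with GAGAGA was 34.7% among members at internal start windows and 35.0% among the others. GGTTCGA was at 2 intronic summits (1.16%), against 19.4% of the peaks in start windows of small RNA genes alone. These matches are letters in a window and were not tested as binding sites.

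Base composition and repeats also differed from the background. The median GC content of the same windows was 43.6% at intronic peaks and 33.7% at background regions. Other thresholded autosomal peaks were near the intronic ones, at 46.5% in coding start windows, 44.6% in intergenic sequence and 41.6% in exons. The summit was in a repeat masked by RefSeq in 21 intronic peaks (12.2%), against 35.8% of background regions. The share was 15.5% at start-window, 16.7% at intergenic and 12.6% at exon peaks, so neither value was particular to introns. Of the 60 members with GAGAGA, 47 had a match wholly outside masked repeats. The part of base composition in the word differences was not tested.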

How the data were processed

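The submitters' labels give 2 biological replicates of 1 group. Per the manifests deposited with each library, relaxed lists of 30000 regions exist for replicate 1, replicate 2 and their pooled reads, made with a control alignment that was not analysed here, and a thresholded list of 2053 peaks was derived from them. The authors deposited a signal column, a peak height with no stated scale, and the summit as an offset from the region's start, another unit. For aligner, caller, settings and threshold, nothing is given in the sources used here. Depth is unknown, so no interval covers it. Columns of other samples left unused numbered 0.

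Coordinates are 1-based on ce11, and genes came from Ensembl release 115 on the same assembly, WBcel235. Sequence and repeat masking came from RefSeq. Summits were placed with Python 3.11.15, pandas 2.3.3 and numpy 2.4.6, and tested with scipy 1.17.1. Shares were compared by two-sided Fisher's exact tests adjusted over 6 comparisons, and words by exact McNemar tests adjusted over 2080 words, each with a threshold of 0.05. The word test was tested on simulated sequences with and without an implanted word, and the placing and matching of summits were not tested in that way. Intervals of shares are exact binomial 95% intervals, and those of odds ratios are conditional exact 95% intervals.

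The members, gene lists and tests were chosen with earlier results of these data known. Named genes were the hosts of the 25 strongest members, hosts with 3 or more peaks, the 5 weakest members and up to 3 hosts for each list by signal, with 10 words more and 5 less frequent at summits. Names outside that rule (CTGCGTC and the word GGTTCGA, the RNA families, T28F4.7, skn-1, daf-16 and the RNA genes under summits) were chosen after their values were seen.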

Additional observations from a re-analysis of the deposited data

How the results depend on the processing

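Of 58 alternative values, 49 kept their direction and side of the threshold, or for counts stayed within 1.5 times, 7 counts moved further, and 2 calls were lost; none reversed. The alternatives that counted 1 region for each host, took the strongest 1000 background regions, asked for flanks wholly in allowed intron, or dropped members over RNA genes were chosen after seeing the data. The number of intronic peaks was 65 at or above the median signal of the thresholded list, which by construction leaves fewer peaks, and ranged from 187 to 225 with the same number of strongest regions taken from 1 replicate at a time. It was 123 with start windows of all transcripts. The odds ratio of matching in both replicates against start-window peaks was 0.779 with summits within 200 bp, and that of internal starts was 1.12 against the strongest 1000 background regions; the cause was not tested. The count of called words, 6, was 20 with the flank at the lower coordinate, 2 with windows of 25 bp each side, 13 with windows of 100 bp each side, 2 among the 65 members at or above the median signal and 10 with flanks wholly in allowed intron (117 members); without either replicate it ranged from 5 to 12. GAGAGA was called in every one of these 6-base settings, with a difference between summits and flanks of 15.1 percentage points without replicate 2, against 28.5 as reported. No paired analysis was possible because there was 1 group. Depth is unknown, which limits every statement on weak or unmatched peaks.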
